A study of Homo sapiens with 16 samples.

Results

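The 10 genes described here are transcriptional outputs of the MAPK pathway and the brakes that act back on it: the phosphatases DUSP4 and DUSP6, the Sprouty and Spred inhibitors SPRY2, SPRY4 and SPRED1, the ETS transcription factors ETV4 and ETV5, and the early or ERK-responsive genes PHLDA1, EGR1 and FOSL1. They were taken by symbol from the 60676 gene identifiers of the deposited tables, all 10 were found, and all 10 were among the 19247 genes that passed the filter on low counts. RNA was measured in 2 human melanoma cell lines, A101D, labelled methionine dependent, and MeWo, labelled methionine independent, with 8 libraries per line from total RNA. The culture protocol names 2 media, both with 5% dialyzed serum: one holds 200 µM methionine, and in the other 200 µM of its precursor homocysteine takes the place of methionine. No label ties a library to either medium. Values are therefore given for each line and, by the replicate numbers of the labels, for replicates 1-4 and replicates 5-8 (4 libraries each). A comparison of these sets compares numbered libraries and not media. Each line is a single established cell line, and nothing in the labels says whether libraries of one line came from separate cultures, so that p-values measure the spread between these libraries, which may be technical.

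In the MAPK pathway, growth factor receptors activate RAS, RAS activates the RAF kinases, and RAF activates MEK, which activates ERK. ERK switches on a set of genes within minutes to hours, and part of this set encodes proteins that turn the pathway down again: DUSP phosphatases remove the phosphates from ERK, and Sprouty and Spred proteins act further up, at the level of RAS and RAF. In melanoma the pathway is often held on by mutation, and the messages of these output and feedback genes are widely used as a readout of its activity. As background that the labels do not state, A101D is known to carry an activating BRAF mutation and MeWo a truncating NF1 mutation.

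The promoters of EGR1 and SPRY2 are shown because they are the windows with motif matches that hold no annotated exon, and because EGR1 had the largest difference of the 10 genes between the A101D replicate sets while SPRY2 did not pass there. RefSeq promoter windows (GRCh38.p14, 250 bases before to 50 after the start) were found for 6 of the 10 genes, in 8 windows. Capitals mark motif matches in the 250 bases before the start, written 5′ to 3′ on the strand of the gene. The EGR1 bases lie at chr5:138465229-138465478 on the plus strand, and the SPRY2 bases (SPRY2 has several starts), at chr13:80341127-80341376 on the minus strand.
EGR1: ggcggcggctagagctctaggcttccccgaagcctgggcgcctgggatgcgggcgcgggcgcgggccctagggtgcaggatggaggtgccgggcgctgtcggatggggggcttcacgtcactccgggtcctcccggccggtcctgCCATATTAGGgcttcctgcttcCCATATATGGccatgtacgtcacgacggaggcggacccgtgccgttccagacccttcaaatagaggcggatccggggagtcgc
SPRY2: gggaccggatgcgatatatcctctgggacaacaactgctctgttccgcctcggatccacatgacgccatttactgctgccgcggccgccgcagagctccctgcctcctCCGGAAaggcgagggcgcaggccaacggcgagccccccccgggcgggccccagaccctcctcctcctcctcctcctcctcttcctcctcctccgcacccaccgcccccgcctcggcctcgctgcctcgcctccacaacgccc
The capitals in EGR1 are 2 CArG boxes, the binding motif of serum response factor, whose first bases lie 105 and 83 bases before the start. The capitals in SPRY2 are the ETS core CCGGAA, 142 bases before the start.

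On either strand, a CArG box was present in the windows of 1 of the 6 genes (EGR1) and in 1.29% of 35116 promoter windows of the same length. The ETS core CCGGAA was found in 2 of the 6 genes (SPRY2 and PHLDA1) and in 17.2% of all windows. The AP-1 motif TGANTCA (7.71% of all windows), the cyclic AMP response element TGACGTCA (1.85%) and the capicua motif TGAATGNA (3.86%) had no match in the windows of these 6 genes. The windows of DUSP6, SPRY4, SPRED1 and PHLDA1 run into annotated exons and are not printed. A match is a description of the letters and no evidence of binding.

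The libraries held 28910881 to 38961862 counts. Levels are given as CPM, the counts per 1000000 counts of a library, after its size was multiplied by a TMM factor (trimmed mean of M-values). All 12 melanoma and melanocyte markers were tested, and they summed to between 3636 and 4299 CPM in the A101D libraries, against between 10581 and 11812 CPM in those of MeWo. The higher sum in MeWo was carried by PMEL (223 against 6642 CPM on average) and TYRP1 (0.913 against 2362 CPM), and 6 of the 12 markers were higher and 6 lower in MeWo, the latter DCT, S100B, S100A1, CSPG4, ERBB3 and MIA. Leukocyte markers summed to 2.75 to 3.95 CPM over both lines. In A101D, replicates 5-8 stood apart from replicates 1-4 over the whole transcriptome, with 68.0% of tested genes past an adjusted p of 0.05 in limma, against 15.6% in MeWo.

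In A101D, 5 of the 10 genes rose in replicates 5-8: EGR1, PHLDA1, DUSP6, ETV4 and DUSP4, by between 1.30-fold and 6.02-fold. SPRY4 fell slightly, and SPRY2, SPRED1, ETV5 and FOSL1 did not pass the test (limma with voom weights, Benjamini-Hochberg over 19247 genes). Among all tested genes 33.6% passed as higher and 34.4% as lower, so the count of 6 of 10 members called stands beside 68.0% of all genes. Past the threshold and over 2-fold higher were 3 of the 10 members and 7.61% of all tested genes. The sets did not overlap for 6 of the 10 members and for 62.3% of all genes. The median log2 difference was 0.22 over the 10 members and -0.01 over all genes. A bulk measurement cannot tell more cells expressing a gene from more RNA per cell.

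**Figure D1:**
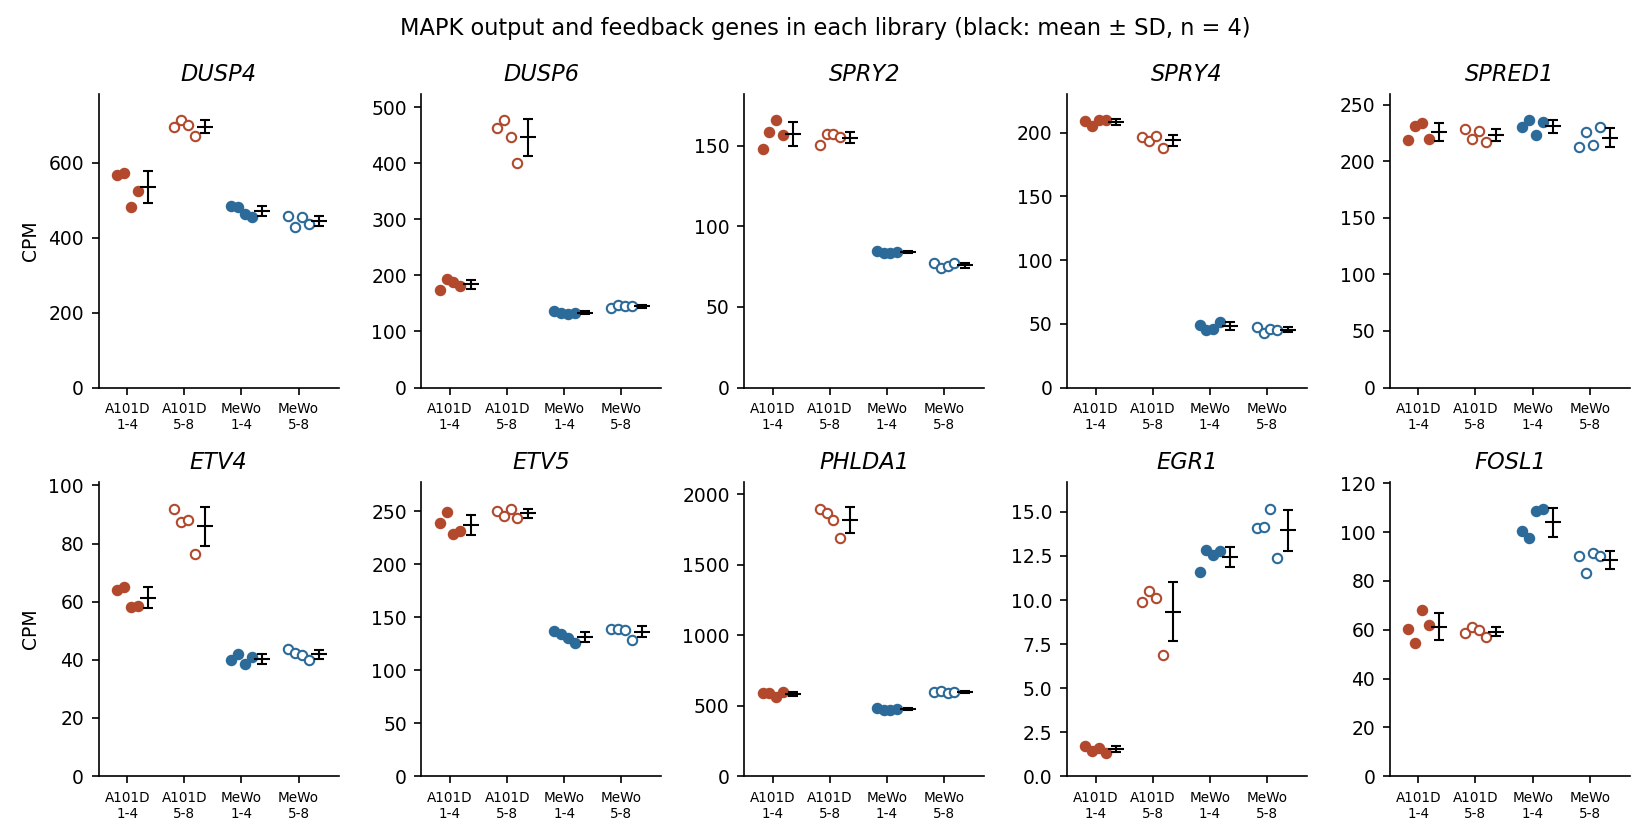
Level of each gene in CPM (linear axes from 0) in the 16 libraries, by line and replicate set; points are libraries (filled for replicates 1-4, open for 5-8) and black bars are the mean ± SD of 4. EGR1, PHLDA1 and DUSP6 in A101D replicates 5-8 lie far above A101D replicates 1-4, while the MeWo sets lie close together; SPRED1 lies between 213 and 236 CPM throughout.

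EGR1 encodes a zinc finger transcription factor of the immediate early response (chromosome 5, 138465490 to 138469315, plus strand, GENCODE v29, GRCh38). In A101D it was measured at 1.72, 1.44, 1.57 and 1.34 CPM in replicates 1, 2, 3 and 4, which were 44 to 66 counts per library. In replicates 5, 6, 7 and 8 it was measured at 9.88, 10.5, 10.1 and 6.87 CPM, or 249 to 396 counts. Every library of the second set lay above every library of the first, and replicate 8 was the lowest of its set. The difference was 6.02-fold (log2 2.59 ± 0.17 SE, adjusted p = 3.48e-15, limma), which ranked 86 among the 19247 tested genes. In MeWo, EGR1 was 11.6 to 12.8 CPM in replicates 1-4 and 12.4 to 15.2 CPM in replicates 5-8, the sets overlapped, and the difference of 0.16 ± 0.08 (log2) did not pass (adjusted p = 0.214, limma).

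PHLDA1, a pleckstrin-homology-like protein induced by growth factors and ERK (chromosome 12, 76025447 to 76033932, minus strand), had the highest mean CPM of the 10 genes in A101D. It stood at 589, 586, 560.3 and 593 CPM in A101D replicates 1, 2, 3 and 4. It stood at 1896, 1863, 1819 and 1688 CPM in replicates 5, 6, 7 and 8, where every library lay above all of the first set. The difference was 3.12-fold (log2 1.64 ± 0.03 SE, adjusted p = 4.96e-33, limma). MeWo libraries held 471 to 485 CPM in replicates 1-4 and 592 to 602 CPM in replicates 5-8, again without overlap and with a smaller difference (1.25-fold, log2 0.33 ± 0.03, adjusted p = 3.11e-09, limma). The MeWo call was lost when no filter on low counts was used (adjusted p = 0.304, limma). On the other strand, AC011611.3 shares 553 exon bases with PHLDA1 and was counted at 4 to 13. AC011611.4 shares 779 and was counted at 0, against 14861 to 70284 for PHLDA1. The strand setting of the counting is not given, so reads of these genes cannot be told apart.

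DUSP6 encodes a cytoplasmic phosphatase that is specific for ERK (chromosome 12, 89347232 to 89353271, minus strand). Its A101D libraries held 174, 193, 189 and 181 CPM in replicates 1, 2, 3 and 4. In replicates 5, 6, 7 and 8 they held 462, 477, 446 and 401 CPM, without overlap. The difference was 2.42-fold (log2 1.28 ± 0.04 SE, adjusted p = 9.92e-26, limma). In MeWo the sets were 130.5 to 136 CPM and 142 to 147 CPM, which do not overlap but differ by 1.09-fold (log2 0.12 ± 0.04, adjusted p = 0.0477, limma). That MeWo call rested on narrow ground: it was lost on leaving out any 1 of 14 of the 16 libraries, namely A101D replicate 1, 3, 4, 5, 6 or 7 or any MeWo replicate (adjusted p = 0.0663 to 0.214, limma). An antisense gene, AC024909.2, shares 1875 exon bases with DUSP6 and was counted at 86 to 316, against 4112 to 17978 for DUSP6. As the strand setting of the counting is not given in the sources used here, reads of the pair cannot be told apart.

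DUSP4, the nuclear phosphatase of the same family (chromosome 8, 29333064 to 29350668, minus strand), moved less. In A101D it was 568, 572, 481 and 523 CPM in replicates 1, 2, 3 and 4 and 696, 714, 702 and 672 CPM in replicates 5, 6, 7 and 8. The sets did not overlap, and the difference was 1.30-fold (log2 0.38 ± 0.04 SE, adjusted p = 1.9e-10, limma). In MeWo the difference was -0.09 ± 0.04 (log2) and did not pass (adjusted p = 0.146, limma), with 456 to 484 CPM in replicates 1-4 and 429 to 457 CPM in replicates 5-8.

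Of the ETS factors, which bind DNA at CCGGAA-like cores and whose genes are induced by ERK, ETV4 rose in A101D and ETV5 did not pass. ETV4 (chromosome 17, 43527844 to 43579620, minus strand) was 63.8, 65.1, 58.3 and 58.4 CPM in replicates 1, 2, 3 and 4 and 92.0, 87.4, 88.2 and 76.3 CPM in replicates 5, 6, 7 and 8, without overlap (1.40-fold, log2 0.48 ± 0.05 SE, adjusted p = 1.96e-11, limma). ETV5 (chromosome 3, 186046308 to 186110318, minus strand) was 228 to 249 CPM and 244 to 252 CPM in the same sets, which overlap, with a log2 difference of 0.07 ± 0.03 (adjusted p = 0.0805, limma). ETV5 passed with upper-quartile factors, with total counts, without the low-count filter, and on leaving out A101D replicate 2 or 8 or MeWo replicate 5, 6 or 8 (adjusted p as low as 2.53e-05, limma). In MeWo neither factor passed: ETV4 differed by 0.06 ± 0.05 (adjusted p = 0.543) and ETV5 by 0.05 ± 0.04 (adjusted p = 0.412, limma). ETV5 shares 164 exon bases with DGKG on the same strand, and ETV4 shares 68 with DHX8 on the other, so a part of their counts is uncertain.

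Of the upstream inhibitors, SPRY4 fell slightly in A101D and SPRY2 and SPRED1 did not pass. SPRY4 (chromosome 5, 142310427 to 142326455, minus strand), which restrains RAS activation, was 209.1, 205, 209.6 and 209.5 CPM in A101D replicates 1, 2, 3 and 4 and 197, 193, 197 and 188 CPM in replicates 5, 6, 7 and 8. The sets did not overlap and the difference was small (1.07-fold lower, log2 -0.10 ± 0.03 SE, adjusted p = 0.00706, limma). The SPRY4 call was lost with upper-quartile factors, with total counts, and on leaving out A101D replicate 1, 3, 4, 6 or 8 (adjusted p = 0.0546 to 0.102 for these libraries, limma). SPRY2 (chromosome 13, 80335976 to 80340951, minus strand) was 148 to 166 CPM and 150.4 to 157 CPM in the A101D sets (log2 -0.02 ± 0.03, adjusted p = 0.673), and SPRED1 (chromosome 15, 38252326 to 38357249, plus strand), which binds NF1, was 219 to 234 CPM and 217 to 229 CPM (log2 -0.02 ± 0.03, adjusted p = 0.664, limma). With total counts in place of TMM factors these small differences turned positive and passed, at log2 0.07 for SPRY2 (adjusted p = 0.0283, limma) and log2 0.07 for SPRED1 (adjusted p = 0.0445, limma).

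FOSL1 encodes FRA1, an AP-1 subunit that accumulates under lasting ERK activity (chromosome 11, 65892049 to 65900573, minus strand). In A101D it was 54.7 to 68.2 CPM in replicates 1-4 and 57.0 to 61.3 CPM in replicates 5-8, and the difference did not pass (log2 -0.04 ± 0.05, adjusted p = 0.465, limma). In MeWo it was 100.4, 97.6, 109 and 109.6 CPM in replicates 1, 2, 3 and 4 and 90.1, 83.1, 91.3 and 90.2 CPM in replicates 5, 6, 7 and 8, a fall without overlap (1.17-fold lower, log2 -0.23 ± 0.05 SE, adjusted p = 0.000597, limma).

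In MeWo, 4 of the 10 genes passed between the replicate sets: PHLDA1 and DUSP6 higher, SPRY2 and FOSL1 lower, and none over 2-fold, where 0.551% of all tested genes were. The share over all tested genes was 15.6% (7.28% higher and 8.32% lower), and 18.2% of all genes had sets that did not overlap, as 4 of the 10 members had. SPRY2 in MeWo was 83.1 to 84.5 CPM in replicates 1-4 and 73.9 to 77.1 CPM in replicates 5-8 (1.11-fold lower, log2 -0.14 ± 0.04 SE, adjusted p = 0.00529, limma). SPRY4, SPRED1, ETV4, ETV5, EGR1 and DUSP4 did not pass. Scaling affects the direction of small MeWo differences: higher genes made up 46.7% of the calls with TMM factors, 33.8% with median-of-ratios factors and 66.7% with total counts. Of the 4 members called in MeWo, DUSP6 was lost with median-of-ratios factors (adjusted p = 0.165, limma), and SPRY2, PHLDA1 and FOSL1 passed under every scaling tried.

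**Figure D2:**
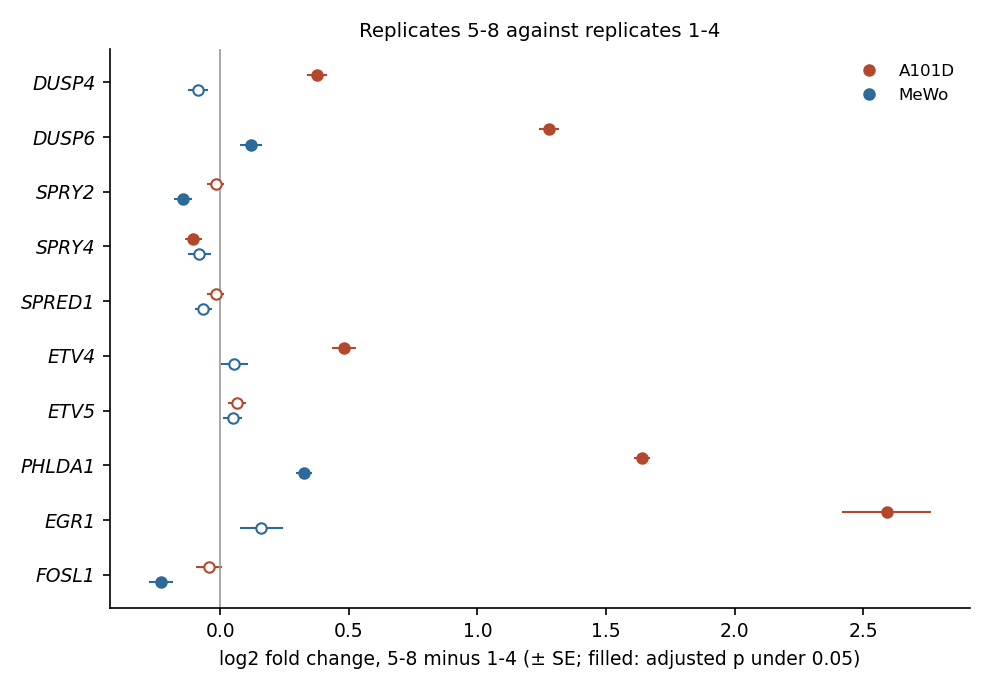
Log2 fold change of replicates 5-8 against replicates 1-4 for each gene (x axis, ± SE from limma) in A101D and MeWo; filled points passed an adjusted p of 0.05. The A101D points of EGR1 (2.59), PHLDA1 (1.64) and DUSP6 (1.28) lie far from 0, and no MeWo point lies beyond 0.33.

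The difference between the sets was itself compared between the lines. It was more positive in A101D for 7 of the 10 genes and did not pass for SPRY4, SPRED1 and ETV5, where 52.7% of all tested genes passed and 24.5% in this direction. The gap (MeWo set difference minus A101D set difference) was -2.43 ± 0.19 for EGR1 (adjusted p = 7.91e-13, limma), -1.31 ± 0.04 for PHLDA1 (adjusted p = 7.77e-25) and -1.16 ± 0.06 for DUSP6 (adjusted p = 6.8e-19) on the log2 scale. It was smaller for DUSP4 (-0.46 ± 0.05), ETV4 (-0.42 ± 0.07), FOSL1 (-0.19 ± 0.07) and SPRY2 (-0.13 ± 0.05). FOSL1 did not pass on leaving out A101D replicate 2 (adjusted p = 0.0561, limma) or without the low-count filter (adjusted p = 0.0537). For SPRY2 and FOSL1 the gap came with a fall in MeWo and no call in A101D, and for the other 5 genes with a rise in A101D.

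Other things moved with the A101D sets. All 15 proliferation markers were lower in A101D replicates 5-8, 14 of them over 2-fold (median log2 -1.84), and their summed level was 1545 to 1617 CPM in replicates 1-4 and 393 to 417 CPM in replicates 5-8. All 12 amino acid response markers were higher, 10 of them over 2-fold (median log2 1.78), with summed levels of 817 to 854 CPM and 2549.8 to 2783 CPM. In MeWo 10 of these 12 were higher (median log2 0.47) and 6 of the 15 proliferation markers lower (median log2 -0.08). The mitochondrial share of counts was 1.71% to 1.92% in A101D replicates 1-4 and 1.93% to 2.33% in replicates 5-8, and 31281 to 33107 and 34020 to 34607 genes had at least 1 count. Summed epithelial markers went from 10.37 to 11.9 CPM to 24.5 to 30.3 CPM, and endothelial markers from 106 to 122 CPM to 137 to 145 CPM. All 3 epithelial and 3 endothelial genes tested were higher. Fibroblast markers summed to 9.74 to 12.04 CPM and then to 9.02 to 10.3 CPM. Of the 5 fibroblast genes, however, 3 were higher, 2 of them over 2-fold, and 1 was lower (median log2 0.67). None of the marker genes was at 0 in every library of either A101D set. In replicates 1-4, 2 epithelial, 2 fibroblast and 1 endothelial gene had under 10 counts in every library. The part of these other changes in the member differences was not tested.

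Other genes of the pathway were described by lists chosen with earlier results of these data known. Of 25 other ERK target genes, 14 were higher and 7 lower in A101D replicates 5-8 (median log2 0.21), where 33.6% of all tested genes were higher and 34.4% lower (median -0.01). Those with the largest differences at 5 CPM or more were KLF10 (log2 1.60 ± 0.11), the stress and survival gene IER3 (1.52 ± 0.04), the receptor EPHA4 (1.30 ± 0.06) and the Spred family member SPRED3 (1.02 ± 0.08). IER3 was 137 to 150.1 CPM and 380 to 444 CPM in the A101D sets. Cyclin D1 (CCND1) went the other way, from 233 to 258 CPM to 204 to 229 CPM (log2 -0.18 ± 0.04, adjusted p = 9e-05, limma), as did MYC, named after its values were seen, from 30.4 CPM to 15.8 CPM on average (log2 -0.95 ± 0.06, adjusted p = 4.68e-16, limma). EPHA2 was higher (log2 0.88 ± 0.05). In MeWo 2 of the 25 were higher and 8 lower (median log2 -0.10), where 7.28% and 8.32% of all tested genes were. IER3 was higher there (0.25 ± 0.05), and HBEGF (-0.35 ± 0.07), CXCL8 (-0.32 ± 0.06) and EPHA4 (-0.18 ± 0.06) were lower.

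Of 20 other immediate early genes, 19 were tested, and 13 were higher and 2 lower in A101D replicates 5-8 (median log2 0.36), beside 33.6% and 34.4% of all tested genes. IER2 (1.45 ± 0.08), KLF4 (1.44 ± 0.06), ATF3 (1.12 ± 0.05) and EGR3 (1.03 ± 0.07) had the largest differences of the list at 5 CPM or more. FOS was 7.05 and 12.5 CPM on average in the A101D sets (log2 0.82 ± 0.10, adjusted p = 4.52e-09, limma). The rule for named genes picked FOS between the lines and not for this comparison. JUN, the partner of FOS in AP-1, was lower (log2 -0.49 ± 0.05) and is named after its values were seen. In MeWo ATF3 (0.33 ± 0.11) and KLF4 (0.16 ± 0.05) were the 2 of the 19 that passed, beside 15.6% of all tested genes. In MeWo none passed on leaving out A101D replicate 4, 6 or 7 or MeWo replicate 1, 2, 3, 6 or 7, and 1 on leaving out A101D or MeWo replicate 5.

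Of the 8 other MAP kinase phosphatases, 3 were higher and 5 lower in A101D replicates 5-8 (median log2 -0.46), beside 33.6% and 34.4% of all tested genes. DUSP5 and DUSP7 are on this list and also among the other ERK target genes above, so the lists overlap. DUSP5, like DUSP6 directed at ERK, was higher (0.67 ± 0.07), from 9.76 to 11.5 CPM to 15.3 to 18.4 CPM, and so were DUSP16 (0.52 ± 0.04) and DUSP10 (0.17 ± 0.04), which act mainly on JNK and p38. DUSP9 (-1.32 ± 0.10), DUSP8 (-0.93 ± 0.13), DUSP2 (-0.65 ± 0.13), DUSP1 (-0.63 ± 0.10) and DUSP7 (-0.29 ± 0.05) were lower. In MeWo DUSP16 and DUSP8 were higher and DUSP2 lower (7.28% and 8.32% of all tested genes), and 1 of the 8 passed without MeWo replicate 7. All 8 are given here whatever the rule for named genes, and DUSP2 averaged under 5 CPM.

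Of 35 genes of the cascade from RAS to ERK, 15 were higher and 10 lower in A101D replicates 5-8 (median log2 0.03), which is near the 68.0% of all tested genes that passed. The scaffold KSR1 (1.61 ± 0.08) and the RAS activator SOS1 (0.93 ± 0.05) were higher and the MEK genes MAP2K2 (-1.05 ± 0.04) and MAP2K1 (-0.50 ± 0.04) lower. BRAF was higher (0.23 ± 0.04) and NRAS lower (-0.30 ± 0.04), and the kinase gene MAPK3, NF1 and the repressor gene CIC did not pass (adjusted p = 0.81, 0.641 and 0.554, limma). In MeWo, where 15.6% of all tested genes passed, 1 of the 35 was higher and 4 lower, the latter SHC1, MAP2K2, NRAS and MAP2K1, and 8 passed without MeWo replicate 5. These are transcript levels and do not measure kinase activity.

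**Figure D3:**
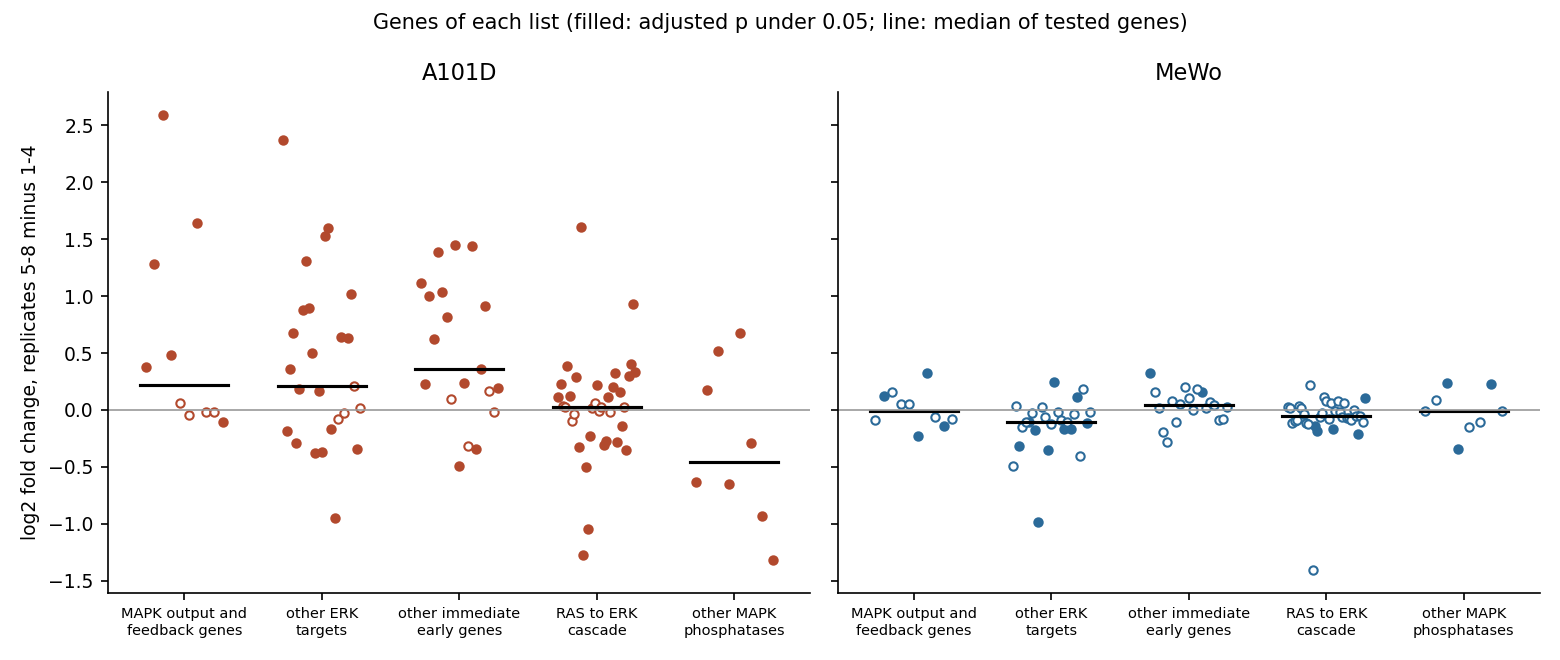
Log2 fold change of replicates 5-8 against 1-4 (y axis) for every tested gene of 5 lists, in A101D and in MeWo; filled points passed an adjusted p of 0.05 and black lines are list medians. In A101D the medians are 0.22, 0.21, 0.36, 0.03 and -0.46 from left to right, with wide scatter in each list. The MeWo points lie closer to 0. DUSP5 and DUSP7 are drawn both among the other ERK targets and among the other phosphatases.

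Between the lines, 9 of the 10 genes passed over all 16 libraries: DUSP4, DUSP6, SPRY2, SPRY4, ETV4, ETV5 and PHLDA1 were lower in MeWo, and EGR1 and FOSL1 higher. As 79.0% of all tested genes passed (40.4% lower and 38.6% higher), a count of 9 in 10 stands near the background. Lines did not overlap for 7 of the 10 genes and for 57.7% of all genes. The largest fall was that of SPRY4, from 188 to 209.6 CPM in A101D (median 201) to 42.9 to 51.8 CPM in MeWo (median 46.3), 4.30-fold (log2 -2.11 ± 0.04 SE, adjusted p = 7.51e-18, limma). SPRY2 was 148 to 166 CPM (median 157) in A101D and 73.9 to 84.5 CPM (median 80.1) in MeWo (1.96-fold lower, adjusted p = 1.29e-13, limma), and ETV5 228 to 252 CPM (median 245) and 126 to 139 CPM (median 135; 1.81-fold lower, adjusted p = 1.43e-13, limma). DUSP6 was 2.06-fold, PHLDA1 1.93-fold, ETV4 1.77-fold and DUSP4 1.33-fold lower in MeWo, and EGR1 was 3.45-fold and FOSL1 1.60-fold higher. SPRED1 had nearly the same level, 225 ± 6.44 CPM in A101D and 226 ± 8.67 CPM in MeWo (SD, n = 8 each; log2 0.01 ± 0.03, adjusted p = 0.839, limma). NF1, whose product works with SPRED1, was 124 to 136 CPM over the A101D libraries and 19.9 to 24.3 CPM over those of MeWo (log2 -2.55 ± 0.05, adjusted p = 3.4e-18, limma), and BRAF was also lower in MeWo (log2 -1.47 ± 0.05).

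Between the lines 38.6% of all tested genes were higher in MeWo and 40.4% lower. Of the 25 other ERK targets 12 were higher and 9 lower in MeWo, with LIF (log2 -4.35 ± 0.06), SPRED3 (-3.83 ± 0.33) and EPHA2 (-3.64 ± 0.20) far lower and the lipid kinase gene SPHK1 far higher (3.89 ± 0.05). Of the 19 immediate early genes 6 were higher and 10 lower, with BTG2 (-5.13 ± 0.12), ATF3 (-2.57 ± 0.27) and CCN2 (-2.38 ± 0.13) lower and FOS higher (2.21 ± 0.14). Of the 35 cascade genes 13 were higher and 15 lower, with KSR1 (-2.59 ± 0.39), NF1 and the kinase gene RPS6KA3 (-1.55 ± 0.03) lower and RPS6KA2 higher (2.40 ± 0.05). Of the 8 other phosphatases 5 were higher and 2 lower, with DUSP8 (1.97 ± 0.16) and DUSP1 (1.12 ± 0.11) higher and DUSP16 (-1.33 ± 0.11) and DUSP10 (-0.86 ± 0.05) lower. All 15 proliferation markers were higher in MeWo, where they summed to 2759 to 2928 CPM. Fibroblast markers summed to between 9.02 and 12.04 CPM in A101D libraries and between 76.0 and 85.9 CPM in those of MeWo. For endothelial markers the sums were 106 to 145 CPM against 2.99 to 3.38 CPM, and for epithelial markers 10.37 to 30.3 CPM against 1.05 to 1.84 CPM. The part of these in the line differences was not tested.

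For the genes that rose in A101D replicates 5-8, the line difference depended on the set compared. These comparisons share libraries with those above, so their values are set side by side. DUSP6 was 1.38-fold lower in MeWo within replicates 1-4 (log2 -0.46 ± 0.04) and 3.07-fold lower within replicates 5-8 (-1.62 ± 0.04). PHLDA1 was 1.23-fold lower (-0.29 ± 0.03) and 3.05-fold lower (-1.61 ± 0.03), ETV4 1.53-fold (-0.61 ± 0.05) and 2.05-fold lower (-1.03 ± 0.05), and DUSP4 1.14-fold (-0.18 ± 0.04) and 1.57-fold lower (-0.65 ± 0.04). EGR1 was 8.12-fold higher in MeWo within replicates 1-4 (3.02 ± 0.17) and 1.51-fold higher within replicates 5-8 (0.59 ± 0.09). SPRY4 kept its distance, at -2.12 ± 0.04 and -2.09 ± 0.04, as did ETV5 at -0.85 ± 0.03 and -0.87 ± 0.03. In both sets 9 of the 10 genes passed, where 81.5% and 85.3% of all genes did. Over 2-fold lower were 1 member within replicates 1-4 (SPRY4; 21.2% of all genes) and 5 within replicates 5-8 (DUSP6, SPRY2, SPRY4, ETV4 and PHLDA1; 23.0% of all genes). SPRED1, not called in either set, passed within replicates 1-4 on leaving out MeWo replicate 3 (log2 0.08, adjusted p = 0.0415, limma), and without the low-count filter PHLDA1 did not pass there (adjusted p = 0.132).

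**Figure D4:**
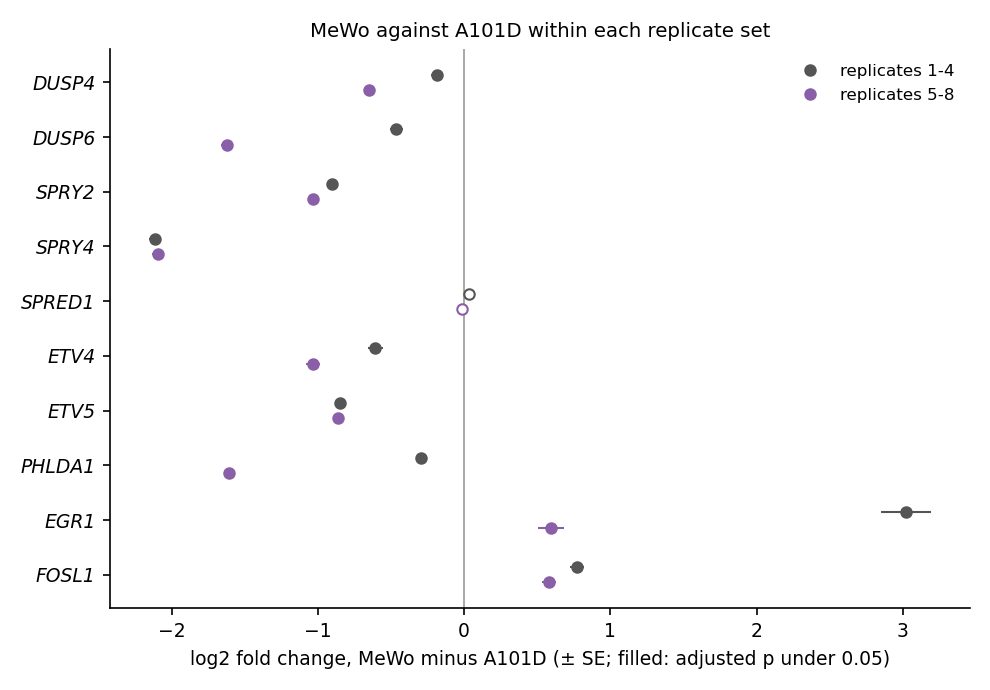
Log2 fold change of MeWo against A101D (x axis, ± SE from limma) within replicates 1-4 and within replicates 5-8; filled points passed an adjusted p of 0.05. DUSP6 moves from -0.46 to -1.62, PHLDA1 from -0.29 to -1.61 and EGR1 from 3.02 to 0.59, while SPRY4 and ETV5 have nearly equal values in both sets.

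Per kilobase (kb) of GENCODE v29 exon, the order of the genes also differed between groups. The length is that of all annotated exons of a gene together. It includes bases that DUSP6 and PHLDA1 share with antisense genes, so close ranks are uncertain. In A101D replicates 1-4 DUSP4 (73.9 CPM per kb) and PHLDA1 (72.1) led, with overlapping libraries, and EGR1 was last (0.483). In A101D replicates 5-8 PHLDA1 led (225), followed by DUSP6 (96.4) and DUSP4 (95.9), whose libraries overlap. In MeWo replicates 1-4 the order began with DUSP4 (64.9), PHLDA1 (58.9) and FOSL1 (55.2), whose libraries do not overlap. DUSP6 (28.8), SPRED1 (27.95) and SPRY2 (27.6) followed, where DUSP6 overlaps SPRED1 and SPRED1 overlaps SPRY2. PHLDA1 also led in MeWo replicates 5-8 (73.8), followed by DUSP4 (61.2) and FOSL1 (47.0), whose libraries do not overlap. EGR1 was last in all 4 groups, at 3.96 and 4.45 CPM per kb in the MeWo sets. The summed level of the 10 genes was 2196 to 2316 CPM in A101D replicates 1-4 and 3705 to 4041 CPM in replicates 5-8, mostly through PHLDA1, and 1707 to 1757 CPM and 1797 to 1819 CPM in the MeWo sets.

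Outside the 10 genes, the tested genes with a mean of at least 10 CPM whose log2 CPM followed DUSP6 most closely over the 16 libraries were BTBD9, TOR1B, TRIM38, KBTBD2 and DISP1, of 10124 compared. TRIM38, for example, was 57.1 and 138 CPM on average in the A101D sets and 43.5 and 48.9 CPM in the MeWo sets. The correlation with DUSP6 over all 16 libraries was 0.997 to 0.998 for these 5 genes, and 0.674 (DISP1) to 0.972 (TRIM38) within the 8 MeWo libraries. It is a description, since the A101D sets lie apart and the libraries share their scaling.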

How the data were processed

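RNA of the melanoma lines A101D and MeWo was sequenced in 16 libraries, 8 per line. The submitters' processing notes name Trimmomatic 0.39-1, STAR 2.7.1a, featureCounts 2.0.0 and the build GRCh38. Neither the annotation behind the counting nor its strandedness option is given in the sources used here. The authors deposited whole-number counts per Ensembl gene, 1 table per line, with each cell joining the identifier and the count, per the file headers. Gene symbols, positions and exon lengths came from GENCODE v29. Genes with at least 0.298 CPM (10 counts at the median depth) in at least 8 libraries and at least 15 counts in all were tested. Sizes were scaled with TMM factors, and limma 3.58.1 (R 4.3.3) was fitted with voom weights and robust moderation. The line difference used 8 against 8 libraries, and all other contrasts a fit of 4 group means. P-values were adjusted by Benjamini-Hochberg over 19247 genes at a threshold of 0.05, and ± after a log2 fold change is its standard error. The code was tested on simulated data.

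The 10 members, the gene lists and the split of the replicate numbers were chosen with earlier results of these data known. All 10 members are named. The rule for other genes took, from each list and contrast, up to 4 called genes with the largest change and a mean of at least 5 CPM, and preset cascade and target genes. It was applied in the text to the pathway lists for both set comparisons and the line comparison over 16 libraries, its picks for the other contrasts and the marker lists are not all printed, and one preset gene is not reported here. Scaling, filter, weights, moderation, threshold, a replicate block, the samples fitted and each library were varied in turn.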

Additional observations from a re-analysis of the deposited data

Results flagged for a closer look

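In 5 of 60 groups of libraries checked with Dixon's criterion, 1 library lay apart from the others. About 3 would be expected by chance at 1 in 20 if the groups were independent. They are nested, since the 8 libraries of each line hold both of its sets of 4, so that number is a rough guide. All 5 flags lay in sets of 4 libraries. SPRY4 was 205 CPM in A101D replicate 2 and 209.1 to 209.6 CPM in the other libraries of replicates 1-4. ETV5 was 129 CPM in MeWo replicate 8 and 138 to 139 CPM in the others of replicates 5-8. PHLDA1 was 485 CPM in MeWo replicate 1 and 471 to 473 CPM in the others of replicates 1-4. EGR1 was 6.87 CPM in A101D replicate 8 and 9.88 to 10.5 CPM in the others of replicates 5-8. FOSL1 was 83.1 CPM in MeWo replicate 6 and 90.1 to 91.3 CPM in the others of replicates 5-8.

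For 7 genes the difference between the replicate sets itself differed between the lines in limma (MeWo minus A101D, log2). The gap was -2.43 for EGR1, -1.31 for PHLDA1, -1.16 for DUSP6, -0.46 for DUSP4 and -0.42 for ETV4, each with a rise in A101D. It was -0.19 for FOSL1 and -0.13 for SPRY2, each with a fall in MeWo. The cause of these gaps was not tested.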

How the results depend on the processing

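Of 1570 values of the 60 member results under alternatives, 1495 kept their call, and 934 of 960 did so on leaving out 1 library. Of the former, 26 changed sign without a call either way. With total counts, the A101D set differences of SPRY2 and SPRED1 turned to 0.0744 and 0.0732 (log2) and passed. Total counts also gave 4 immediate early and 8 cascade genes in the MeWo sets. Median-of-ratios factors gave 0 immediate early genes there, limma-trend 1 and a fit on that line alone 4. Without a low-count filter (47564 genes tested), the MeWo sets had 2 members, 6 other ERK targets, 0 immediate early genes and 1 other phosphatase past the threshold. A threshold of 0.01 left 1632 genes in the MeWo sets, with 6 other ERK targets, 0 immediate early genes, 3 cascade genes and 1 other phosphatase.

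Tested against a 2-fold change (treat), 5036 genes passed between the lines, with 1 member, 10 other ERK targets, 7 immediate early genes, 9 cascade genes and 2 other phosphatases. The A101D sets then had 1150 genes, with 3 members, 4 other ERK targets, 3 immediate early genes, 1 cascade gene and 1 other phosphatase. The MeWo sets had 2 genes, with 0 members and 0 genes of each list, against 3002 genes and 4 members at any fold. Between the lines 5074 genes and 2 members passed within replicates 1-4, and 6257 genes and 3 members within replicates 5-8. The difference of the set differences had 584 genes and 2 members.

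On leaving out each library in turn, 15160 to 15474 genes passed between the lines and 12570 to 13342 in the A101D sets, with 5 to 7 members. In the MeWo sets 2144 to 3198 genes passed, with 3 to 4 members, 7 to 11 other ERK targets, 0 to 3 immediate early genes, 4 to 8 cascade genes and 1 to 4 other phosphatases. The difference of the set differences had 9691 to 10175 genes and 6 to 7 members.

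Same-numbered libraries of the lines had deviations from their set means that correlated at -0.06 to 0.14, and 2 of 8 numbers matched best with themselves. Deviations from the line means, which also hold the set difference, correlated at 0.08 to 0.23. These correlations cannot settle whether the numbers pair the libraries, which the labels do not say. With the replicate number as a block, 15332 genes passed between the lines against 15202 without it. All 40 member results of that fit kept their call. They are the line comparisons and the difference of the set differences. The set differences within a line cannot be separated from this block and were not tested with it.

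Tests with edgeR or DESeq2 were not run, because the deposited columns, which join identifier and count, were not accepted as count columns. The counts split from them were whole numbers. Depth limits EGR1 most, with 44 to 66 counts in A101D replicates 1-4.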
